A study of Mus musculus with 12 samples.

Results

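The Hox cluster genes were followed through mouse oocytes that had lost a Polycomb complex. They were taken as every gene row of the deposited tables whose symbol was Hoxa, Hoxb, Hoxc or Hoxd and a number, which gave 39 genes of 55385 rows in the PRC2 table and the same 39 of 55401 in the PRC1 table, with no minimum level; 38 of them are described, and all counts and sums below are over these 38. The values were RNA-seq TPM (transcript abundance corrected for length and scaled to a fixed sum per library) from 12 libraries of oocytes taken from ovaries, 2 in each of 6 groups. The PRC2 table held oocytes with Ddx4-Cre, which recombines in germ cells, and either EedF/+ (control) or EedF/- (conditional knockout, cKO), each as non-growing oocytes at postnatal day 6 and growing oocytes at postnatal day 7. The PRC1 table held growing oocytes at postnatal day 7 that all lacked Ring1 and carried Ddx4-Cre, with the genotype Ring1-/-; Rnf2F/+; Ddx4-Cre in the control and Ring1-/-; Ring1F/-; Ddx4-Cre in the cKO. The cKO label thus names Ring1 a second time where the control names Rnf2, and PRC1 cKO below means the libraries so labelled. The PRC1 control lacked Ring1 itself, so the comparison did not include oocytes with both ubiquitin ligases intact. Stage and postnatal day differed together. Whether a group drew on separate animals is not in the labels, so p-values measure the spread between these libraries, which may be technical.

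Hox genes encode homeodomain transcription factors that give cells along the body axis their position. In mouse they lie in 4 clusters, Hoxa to Hoxd, and are numbered in 13 paralog groups by their order in the cluster, from group 1 at the 3′ end, used in anterior tissue, to group 13 at the 5′ end, used in the most posterior tissue. Outside their domains the clusters are a classic target of the Polycomb complexes: PRC2, which contains EED, places methyl groups on lysine 27 of histone H3, and PRC1, whose ligase is RING1 or RNF2 (RING1B), places ubiquitin on histone H2A and compacts the chromatin. Oocytes use no axial code, and the clusters are mostly silent in them.

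CpG-rich promoters are the usual site of Polycomb recruitment in mouse cells, and the bases before the start of 5 members are shown for that reason. A start was found in the RefSeq table (GRCm38.p6) for 22 of the 38 members, at 24 sites. The first 3 below belong to genes that were higher in PRC1 cKO, and the last 2 to genes that did not pass there. Each line gives the 250 bases before the start, 5′ to 3′, with every CG in capitals, and each of these starts is the 5′ end of the gene model.
Hoxa13 (chr6:52260881-52261130, minus strand): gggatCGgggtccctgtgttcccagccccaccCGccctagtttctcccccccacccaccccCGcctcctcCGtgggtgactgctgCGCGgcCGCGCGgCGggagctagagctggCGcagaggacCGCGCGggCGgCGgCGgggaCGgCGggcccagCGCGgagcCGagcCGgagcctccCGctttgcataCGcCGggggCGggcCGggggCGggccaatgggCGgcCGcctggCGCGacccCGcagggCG
Hoxd1 (chr2:74762730-74762979, plus strand): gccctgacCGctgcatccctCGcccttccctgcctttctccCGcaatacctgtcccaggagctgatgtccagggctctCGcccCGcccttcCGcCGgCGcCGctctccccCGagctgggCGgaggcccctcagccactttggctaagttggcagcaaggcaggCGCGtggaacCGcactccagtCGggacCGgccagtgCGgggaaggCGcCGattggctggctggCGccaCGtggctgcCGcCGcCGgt
Hoxd8 (chr2:74704365-74704614, plus strand): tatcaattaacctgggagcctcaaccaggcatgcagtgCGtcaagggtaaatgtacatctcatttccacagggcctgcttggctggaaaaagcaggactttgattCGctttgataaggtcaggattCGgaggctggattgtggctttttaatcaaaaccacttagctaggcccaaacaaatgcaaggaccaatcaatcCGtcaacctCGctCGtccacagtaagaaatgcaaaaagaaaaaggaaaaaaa
Hoxa5 (chr6:52204588-52204837, minus strand): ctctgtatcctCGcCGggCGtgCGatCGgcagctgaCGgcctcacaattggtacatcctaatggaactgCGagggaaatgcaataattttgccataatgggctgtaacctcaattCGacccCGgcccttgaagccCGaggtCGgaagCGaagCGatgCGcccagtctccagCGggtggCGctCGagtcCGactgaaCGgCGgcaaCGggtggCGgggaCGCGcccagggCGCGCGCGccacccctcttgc
Hoxb8 (chr11:96281655-96281904, plus strand): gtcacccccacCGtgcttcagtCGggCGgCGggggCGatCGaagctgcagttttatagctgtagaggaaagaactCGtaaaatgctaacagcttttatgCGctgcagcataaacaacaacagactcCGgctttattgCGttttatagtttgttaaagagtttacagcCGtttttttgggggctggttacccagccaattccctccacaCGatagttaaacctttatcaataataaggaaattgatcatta
The letters CG, read on either strand alike, occurred 35 times before Hoxa13, 24 times before Hoxd1 and 6 times before Hoxd8, against 28 times before Hoxa5 and 12 times before Hoxb8. Of all 32851 windows of this length in the table, 92.1% held at least 1 CG and the median was 6. A count as high as that of Hoxa13 was reached by 2.97% of all windows, and one as high as that of Hoxd8 by 50.4%. The 7 windows of the 6 matched genes that were higher in PRC1 cKO held 6 to 35 CG (median 20), and the 17 windows of the other 16 matched members 2 to 28 (median 12). The ranges overlapped, and 4 of the 10 genes that were higher had no entry. Unlike the 5 shown, some starts lay far from the 5′ end of the gene model. A start of Hoxa10 lay 5915 bases from it and that of Hoxc4 15461 bases. For Hoxa3, Hoxa7, Hoxd10 and Hoxd13 the bases after the start were not found in a transcript of the gene.

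The targeted genes were read first. In non-growing oocytes Eed was at 88.9 and 90.5 TPM in control against 12.1 and 10.3 TPM in PRC2 cKO, and in growing oocytes at 62.3 and 60.5 against 9.64 and 10.1 TPM, so the cKO lay below the control at both stages (log2 change of TPM + 1 -2.90 and -2.52, SE 0.09 each, limma adjusted p = 0.00176 and 0.00792). For Ring1 the 2 PRC1 control libraries were listed at 0 and those of PRC1 cKO at 0.01 and 0.02 TPM. In the separately normalized PRC2 table, whose genotypes do not name Ring1, growing oocytes held only 0.10 to 0.35 TPM. The values near 0 are thus a weak check of the loss of Ring1. Rnf2 was at 59.2 and 53.8 TPM in PRC1 control against 87.8 and 61.4 TPM in PRC1 cKO (log2 change 0.37, SE 0.21, limma adjusted p = 0.302). A value per gene also counts exons outside a deleted part, and the sources used here do not give the deleted part, so Rnf2 does not check the PRC1 cKO label. Over the whole tables, 11747 to 12592 rows reached 1 TPM in the 10 libraries other than PRC1 cKO, and 15582 and 14940 in PRC1 cKO.

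In the PRC2 table the Hox genes were nearly silent in all 8 libraries. Of the 38 genes, 12 were listed at 0 in every library, 29 stayed under 0.1 TPM and 2, Hoxa7 and Hoxc13, reached 1 TPM. The summed TPM of all members lay between 2.99 and 4.02 in the 4 non-growing libraries and between 6.19 and 9.23 in the 4 growing ones. Without Hoxa7, a central gene of the Hoxa cluster, the order turned, to 2.44 to 2.62 in non-growing and 1.21 to 1.63 in growing oocytes. Hoxa11, Hoxb1, Hoxb3 and Hoxd3 were listed at 0 in all 12 libraries of both tables. TPM keeps no depth, so a listed 0 does not show that the RNA was absent.

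**Figure D1:**
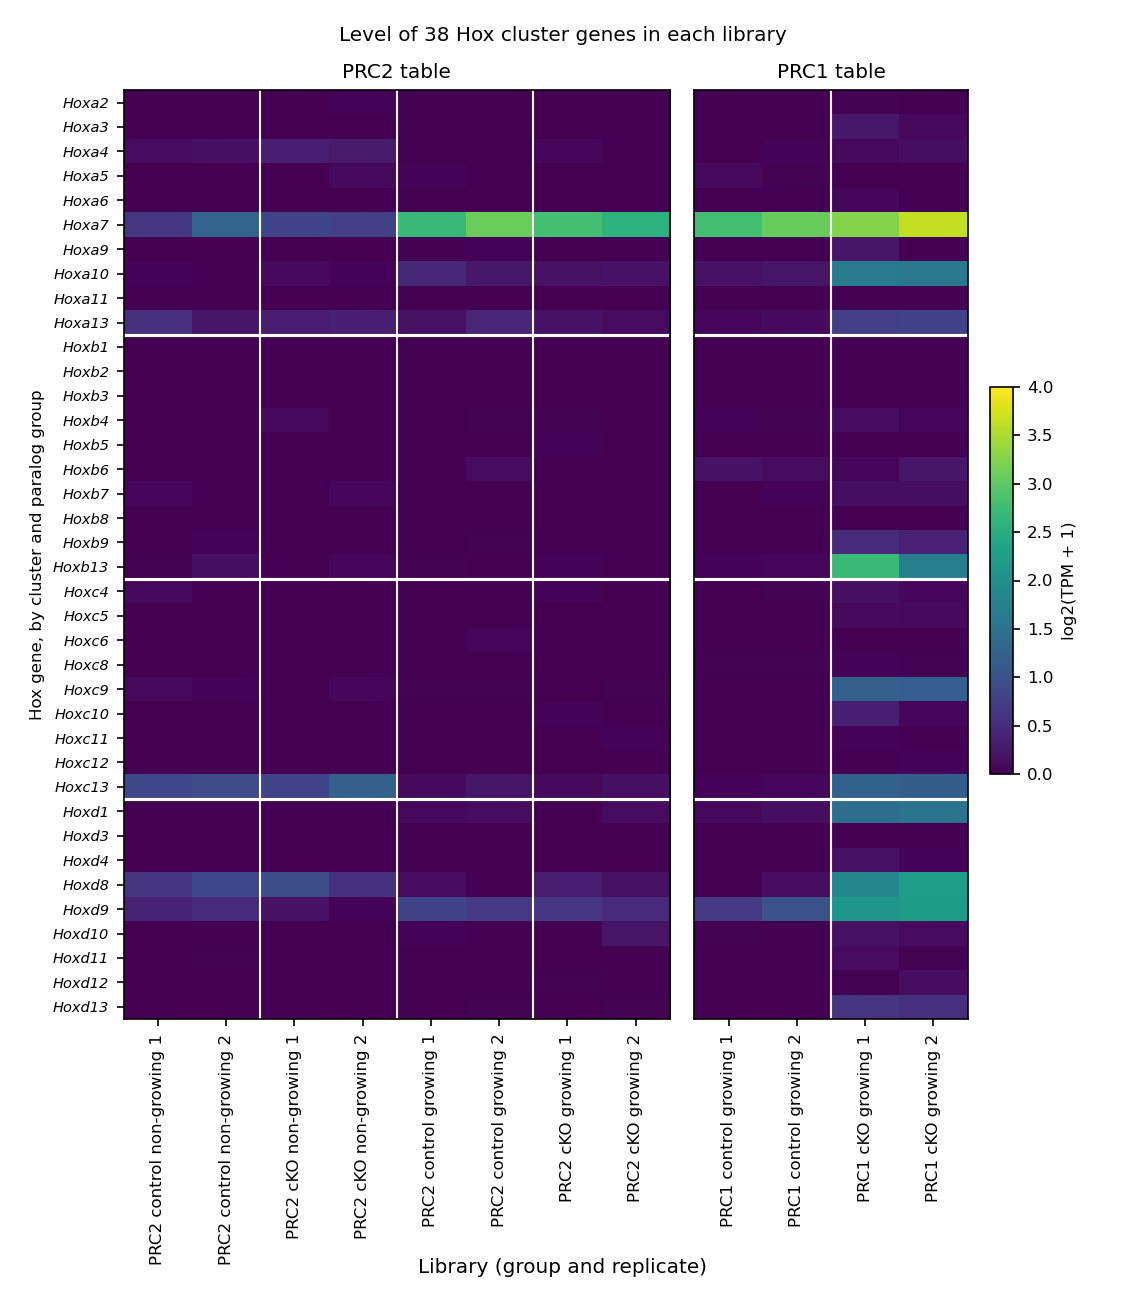
Level of each Hox gene (rows, by cluster and paralog group, white lines between clusters) in each of the 12 libraries (columns), as log2(TPM + 1) on a shared colour scale. Hoxa7 is bright in all growing oocytes, and the 2 PRC1 cKO libraries hold the most genes above the dark background, 19 and 15 members at 0.1 TPM or more.

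After loss of Eed in non-growing oocytes no Hox gene passed the test. With limma on log2(TPM + 1), 0 of the 26 members with a value above 0 passed an adjusted p of 0.05, against 0.153% of all rows higher and 0.144% lower, and the unadjusted p was under 0.05 for 2 members and 11.6% of all rows. Hoxa4, a central gene, was at 0.09 and 0.12 TPM in control against 0.26 and 0.22 TPM in cKO (log2 change 0.17, SE 0.04, limma adjusted p = 0.194). Hoxd9, a posterior gene, was at 0.32 and 0.40 TPM in control against 0.14 and 0.03 TPM in cKO (log2 change -0.33, SE 0.10, limma adjusted p = 0.332). The libraries of the 2 genotypes did not overlap for either gene, with the cKO above for Hoxa4 and below for Hoxd9.

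Growing oocytes without Eed gave the same count. Of 26 members 0 passed, against 0.101% of all rows higher and 0.062% lower, and the unadjusted p was under 0.05 for 1 member and 7.58% of all rows. That member was Hoxa10, a posterior gene that patterns the reproductive tract, at 0.36 and 0.20 TPM in control against 0.13 and 0.15 TPM in cKO (log2 change -0.16, SE 0.07, limma adjusted p = 0.649). Hoxa7, the most abundant member, was at 5.5 and 7.6 TPM in control against 6 and 4.98 TPM in cKO, with overlapping libraries (log2 change -0.21, SE 0.27, limma adjusted p = 0.912). No other member of either growing PRC2 group reached 1 TPM. With PRC2 cKO growing replicate 1 left out, 1 member passed as higher: Hoxd10, at 0.03 and 0 TPM in control against 0 and 0.17 TPM in cKO. That call rests on the remaining cKO library, at 0.17 TPM, with the spread taken from the other groups, and 2.17% of all rows were then higher. The difference of the Eed effect between the stages passed for 0 of 26 members by limma, against 0.0457% of all rows higher and 0.0228% lower, and the unadjusted p was under 0.05 for Hoxa4 and for 10.7% of all rows.

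Growth moved a few members, and each that passed went in the same direction in both genotypes. The genotypes share no libraries, but both comparisons come from one fit with a shared estimate of the spread. Their p-values are thus not independent. Hoxa7 rose from 0.55 and 1.40 TPM in non-growing to 5.5 and 7.6 TPM in growing control oocytes, and from 0.78 and 0.70 to 6 and 4.98 TPM in PRC2 cKO. Every growing library lay above every non-growing one, and the ratio of TPM + 1 was 3.88 in control and 3.72 in cKO (log2 change 1.95 and 1.90, SE 0.27 each, limma adjusted p = 0.00244 and 0.00288). Hoxc13, a posterior gene known for hair and nail formation, fell from 0.83 and 0.90 to 0.07 and 0.18 TPM in control and from 0.75 and 1.34 to 0.07 and 0.12 TPM in cKO (log2 change -0.73 and -0.89, SE 0.16 each, limma adjusted p = 0.0158 and 0.00788). Its non-growing libraries were all above its growing ones. Hoxa4 fell from 0.09 and 0.12 TPM to a listed 0 in both control libraries and from 0.26 and 0.22 to 0.04 and 0 TPM in cKO (adjusted p by limma = 0.0288 and 0.0022).

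Other members passed in 1 genotype, which does not show that the genotypes differed. Hoxd8, a central gene, fell from 0.53 and 0.83 to 0.10 and 0 TPM in control (log2 change -0.67, SE 0.17, limma adjusted p = 0.0276), and went from 0.95 and 0.46 to 0.25 and 0.13 TPM in cKO (limma adjusted p = 0.0749). Hoxa10 rose in control, from 0.03 and 0 to 0.36 and 0.20 TPM (log2 change 0.33, SE 0.07, limma adjusted p = 0.0104), and went from 0.07 and 0.03 to 0.13 and 0.15 TPM in cKO (limma adjusted p = 0.252). Hoxd9 rose in cKO, from 0.14 and 0.03 to 0.55 and 0.41 TPM (log2 change 0.45, SE 0.10, limma adjusted p = 0.0206), and went from 0.32 and 0.40 to 0.71 and 0.59 TPM in control (limma adjusted p = 0.0952). For all 3 genes, growing and non-growing libraries of a genotype did not overlap.

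In control 2 members were thus higher and 3 lower of 26, where 8.68% of all rows were higher and 26.3% lower. In PRC2 cKO 2 were higher and 2 lower, where 10.5% were higher and 22.4% lower. The split in control moved with the scaling, to 4 higher and 1 lower after quantile normalization and 3 higher and 1 lower after trimmed-mean scaling or scaling to nuclear protein-coding genes. The split over all rows moved as well, to 12.9% higher and 17.1% lower, 14.6% and 12.1%, and 11.7% and 17.8% under these scalings in turn. Under each of these 3 scalings Hoxa4 and Hoxd8 no longer passed in control, while Hoxa7, Hoxa10 and Hoxc13 did. With any control library left out, fewer members passed in control. Hoxa7 kept its call in each case and Hoxc13 in none, and Hoxa10 lost its call without control non-growing replicate 2. Hoxc4 passed only without control non-growing replicate 2, and Hoxb6 only without control growing replicate 1.

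**Figure D2:**
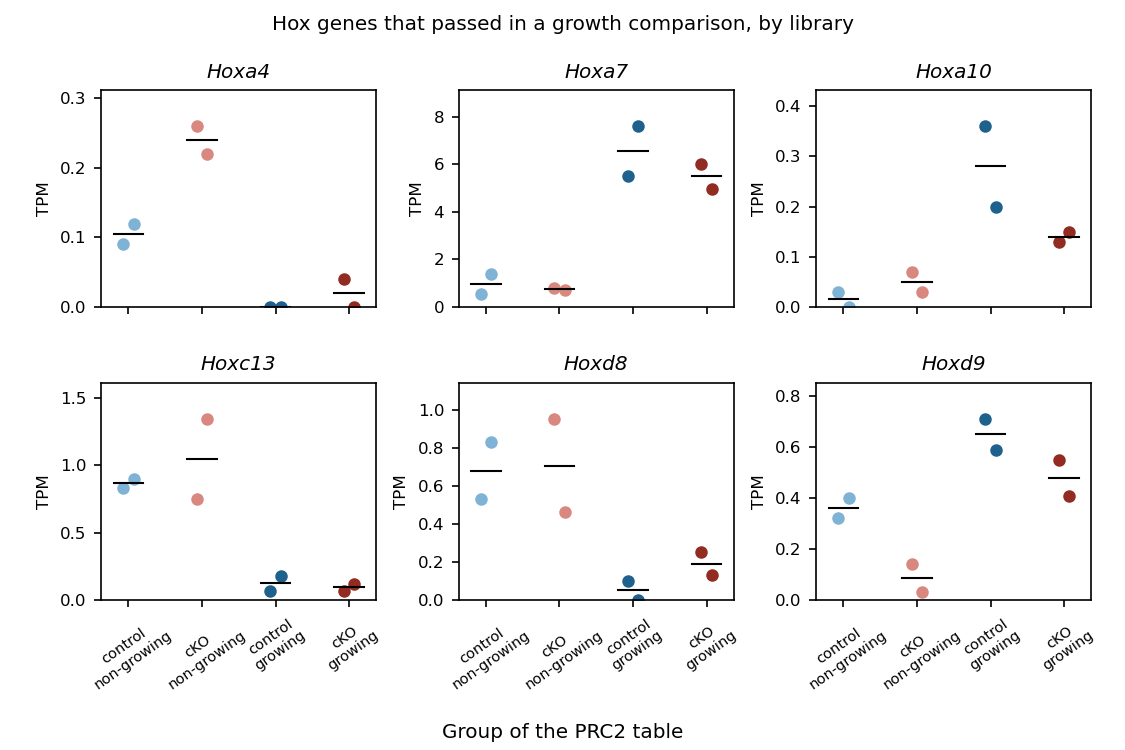
TPM of the 6 Hox genes that passed in a growth comparison, with a point for each library and a line at the mean of the 2 libraries of a group, over the 4 groups of the PRC2 table (each panel has its own scale from 0). Hoxa7 is higher in growing oocytes at 4.98 to 7.6 TPM, and Hoxc13 is higher in non-growing oocytes at 0.75 to 1.34 TPM.

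Some markers of other ovarian cells moved with growth too, and their part in these Hox results was not tested. Of all rows 8.68% were higher and 26.3% lower in control, and 10.5% and 22.4% in cKO. Summed granulosa markers lay at 3.54 to 4.96 TPM in the 4 non-growing libraries and 9.37 to 12.46 TPM in the 4 growing ones, with 3 of 12 higher in control and 2 in cKO, and with Amh at 0 in both non-growing groups. Endothelial markers went from 23.01 to 28.85 TPM to 150.07 to 166.29 TPM, of which Vwf made up most (2 of 7 higher in each genotype, and 1 lower in cKO), while Emcn was at 0 in both control groups. Immune markers went from 0.82 to 2.15 TPM to 4.93 to 13.85 TPM (2 of 9 higher in each genotype), with Ptprc at 0 in non-growing control and Adgre1 at 0 in growing control. Stromal and theca markers lay at 4.89 to 7.99 TPM in non-growing and 4.01 to 4.92 TPM in growing libraries (1 of 11 higher in each genotype, 2 lower in control and 1 in cKO, Tcf21 at 0 in both control groups), and surface epithelium markers at 1.96 to 5.18 and 2.61 to 9.17 TPM (of 7, 0 higher and 2 lower in control, and 1 and 1 in cKO, with Krt19 at 0 in both growing groups).

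Some cofactors and regulators of Hox genes changed with growth, among them the pair Meis1 and Meis2. Meis2, a TALE homeodomain partner of HOX proteins, was at 5.13 and 4.84 TPM in non-growing and 292 and 341 TPM in growing control oocytes, and went from 7.73 and 8.11 to 347 and 345 TPM in PRC2 cKO (log2 change 5.72 and 5.28, SE 0.10 each, limma adjusted p = 1.35e-05 and 1.51e-05). Its paralog Meis1 fell from 4.02 and 4.06 to 0.5 and 0.37 TPM in control and from 5.19 and 4.7 to 1.34 and 0.97 TPM in cKO (log2 change -1.81 and -1.47, SE 0.17 each, limma adjusted p = 0.000577 and 0.00134). Meis2 was thus the 1 of 8 cofactors to rise in either genotype, while Meis1 and Pknox2 fell in control and Meis1 in cKO (median log2 change -0.71 and -0.12, against -0.06 and -0.03 over all rows). Lower calls reached 26.3% of all rows in control and 22.4% in cKO. Of 20 tested upstream regulators 0 rose and 6 fell in control (Rxra, Rxrb, Aldh1a1, Aldh1a2, Egr2 and Kmt2a), and in cKO Rarb and Gdf11 rose and Rxrb, Aldh1a1, Egr2 and Kmt2a fell. After loss of Eed itself, 0 of the 8 cofactors and 0 of the 20 regulators passed by limma at either stage. Of all rows 0.153% were then higher and 0.144% lower in non-growing oocytes, and 0.101% and 0.062% in growing ones. The unadjusted limma p was under 0.05 for 2 cofactors and 2 regulators in non-growing oocytes, against 11.6% of all rows. In growing oocytes it was under 0.05 for 1 and 2, against 7.58% of all rows.

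In PRC1 cKO growing oocytes Hox genes from all 4 clusters were higher than in PRC1 control. Of 32 members with a value above 0, 10 were higher and 0 lower with limma at an adjusted p of 0.05, or 31.25% of those tested and 26.3% of all 38, and the unadjusted p was under 0.05 for 13, as it was for 37.4% of all rows. Among all rows tested 17.8% were higher and 1.7% lower, so higher calls were common in this comparison. The summed TPM of the members went from 7.09 and 9.18 in control to 29.9 and 29.8 in cKO, and without Hoxa7 from 1.19 and 1.77 to 21.3 and 18.45. Members at 0.1 TPM or more numbered 4 and 5 in control and 19 and 15 in cKO. Every cKO library lay above every control library for 23 of 32 members, against 50.8% of all rows, and below for 1, Hoxa5, against 9.44%. The median log2 change was 0.11 over the members and 0.15 over all rows tested, so the median member did not lie above the median gene.

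Among the anterior genes Hoxd1 rose. It was at 0.06 and 0.11 TPM in control against 1.73 and 1.91 TPM in cKO (log2 change 1.38, SE 0.15, limma adjusted p = 0.0242). The libraries of a genotype lay within 0.2 TPM of each other, far closer than the distance between genotypes.

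The posterior genes held 8 of the 10 calls, among 16 members. All 4 genes of group 13, which pattern limbs, tail and urogenital tract, rose. Hoxb13, known from prostate and hindgut, was at 0.03 and 0.04 TPM in control against 5.54 and 2.30 TPM in cKO (log2 change 2.17, SE 0.41, limma adjusted p = 0.0429), with the widest spread between cKO libraries among the 10, and did not pass with a pseudocount of 5 or without the eBayes trend. Hoxc13 was at 0.03 and 0.05 against 1.36 and 1.27 TPM (log2 change 1.15, SE 0.12, limma adjusted p = 0.024). Hoxa13 was at 0.05 and 0.07 against 0.69 and 0.72 TPM (log2 change 0.69, SE 0.08, limma adjusted p = 0.0242), and Hoxd13 at 0.01 and 0 against 0.52 and 0.47 TPM (log2 change 0.57, SE 0.06, limma adjusted p = 0.024). For each of the 4 genes the libraries of the 2 genotypes were far apart.

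Of the group 9 genes, active from the thoracic level backwards, 3 of 4 rose. Hoxc9 was listed at 0 in both control libraries and was at 1.35 and 1.3 TPM in cKO (adjusted p by limma = 0.024), and Hoxb9 was listed at 0 in both and was at 0.41 and 0.29 TPM in cKO (limma adjusted p = 0.03), so that no fold is given. Hoxd9 was at 0.58 and 0.99 TPM in control against 3.34 and 3.51 TPM in cKO (log2 change 1.32, SE 0.24, limma adjusted p = 0.0401). It was the member of the 10 with the highest control level, and its call was lost in 8 of 14 alternatives, among them trimmed-mean scaling, quantile normalization and each of the 4 libraries left out. Hoxa9, the other gene of the group, was at 0 and 0.01 TPM in control against 0.18 and 0 TPM in cKO, with overlapping libraries. The Hoxc9 model lies inside that of Hoxc5, which was at 0.07 and 0.06 TPM in cKO.

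Hoxa10 and Hoxd8 made up the rest. Hoxa10 was at 0.15 and 0.17 TPM in control against 2.13 and 2.02 TPM in cKO (log2 change 1.41, SE 0.16, limma adjusted p = 0.0248). Hoxd8 was at 0.01 and 0.10 against 2.59 and 3.69 TPM (log2 change 1.96, SE 0.23, limma adjusted p = 0.0252). Its model overlaps the antisense gene Hoxd3os1, at 0.11 and 0 TPM in control against 0.68 and 1.43 TPM in cKO (limma adjusted p = 0.0643). Hoxd8 was the only call among the 15 central genes. Hoxa7, already transcribed in control, was at 5.90 and 7.41 TPM there and 8.59 and 11.4 TPM in cKO. Its libraries did not overlap, yet the change did not pass (log2 change 0.52, SE 0.22, limma adjusted p = 0.188). The Hoxa7 model overlaps the antisense gene Hoxaas3, at 0.08 and 0.09 TPM in control against 0.77 and 0.57 TPM in cKO.

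**Figure D3:**
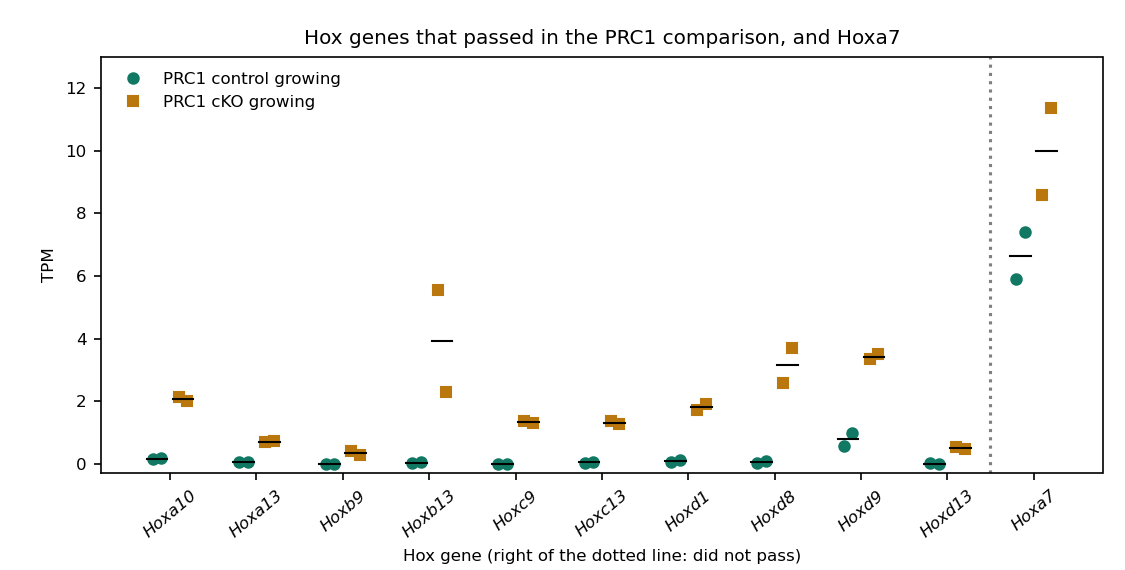
TPM of the 10 Hox genes that passed in the PRC1 comparison and of Hoxa7, which did not, in each PRC1 control (circles) and PRC1 cKO (squares) library, with a line at the mean of each group's 2 libraries. The 10 genes lie at or below 0.99 TPM in control, and Hoxb13 reaches 5.54 TPM in one cKO library and 2.30 TPM in the other.

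By paralog group, no call fell in groups 2 to 7, a range chosen after the calls were seen. With limma, 0 of its 13 tested members passed (4 more were at 0 in all 4 libraries) and 10 of the other 19 tested did, where 17.8% of all rows were higher. In Hoxb and Hoxc the calls were Hoxb9, Hoxb13, Hoxc9 and Hoxc13, and Hoxd had calls at both ends, Hoxd13 and Hoxd1. An unadjusted p under 0.05 was reached in groups 2 to 7 by Hoxb7, at 0 and 0.03 TPM in control against 0.11 and 0.11 TPM in cKO, and by Hoxc5, at 0 in control against 0.07 and 0.06 TPM. Apart from Hoxa7, no member of groups 2 to 7 had a PRC1 cKO mean above 0.13 TPM. By cluster, 2 of 9 tested Hoxa, 2 of 7 Hoxb, 2 of 8 Hoxc and 4 of 8 Hoxd genes were higher. The summed level went from 0.26 and 0.3 to 3.32 and 2.91 TPM for Hoxa without Hoxa7, from 0.20 and 0.18 to 6.22 and 2.94 TPM for Hoxb, from 0.05 and 0.09 to 3.23 and 2.78 TPM for Hoxc, and from 0.68 and 1.2 to 8.55 and 9.82 TPM for Hoxd. Levels differed between some neighbours within a cluster. Hoxd10 to Hoxd12, between the risen Hoxd9 and Hoxd13, were at 0.02 to 0.13 TPM in cKO and did not pass. Their cKO libraries still lay above their control libraries, as for 50.8% of all rows. Hoxd8 and Hoxd9, also neighbours, both passed, and Hoxa11, between Hoxa10 and Hoxa13, was listed at 0.

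**Figure D4:**
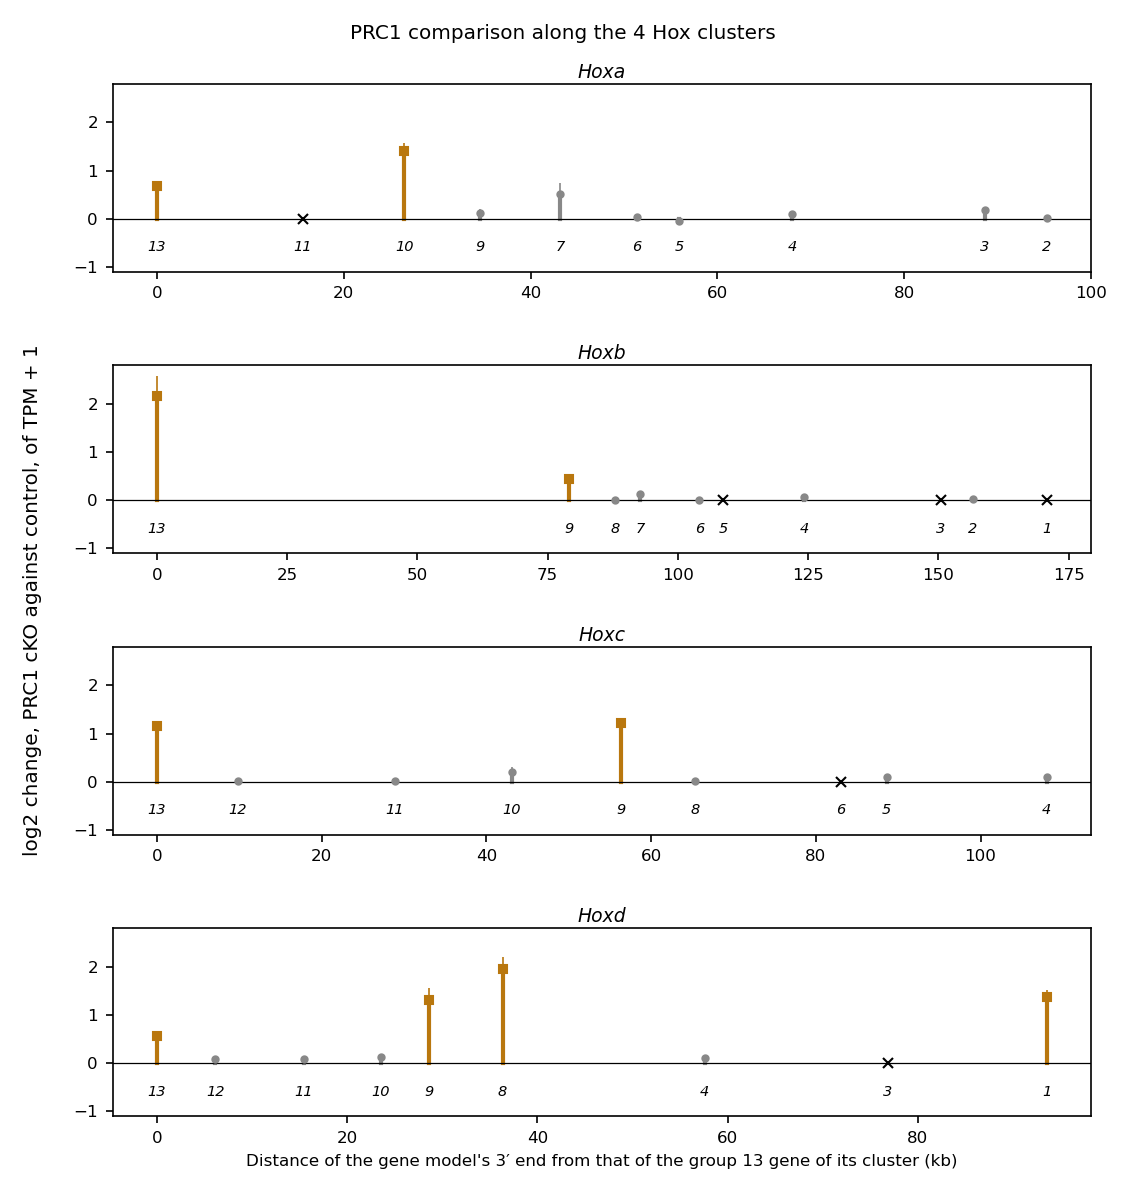
Log2 change of TPM + 1 between PRC1 cKO and control for each Hox gene (numbers are paralog groups) against the distance of its 3′ end from that of the group 13 gene of its cluster, in kb. Squares passed and circles did not, with bars of 1 SE, and crosses mark genes at 0 in all 4 libraries; Hoxd holds 4 squares, among them Hoxd13 and Hoxd1 at its ends, and Hoxb and Hoxc hold 2 each.

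Some noncoding genes of the clusters rose beside them. Of 17 such genes found in the tables, from a list of 19, 7 had a value above 0 in the PRC1 table. Of these 4 were higher, where 17.8% of all rows were. Haglr, transcribed away from the start of Hoxd1, was at 0 and 0.13 TPM in control against 7.95 and 8.63 TPM in cKO (log2 change 3.13, SE 0.21, limma adjusted p = 0.024), levels above those of every Hox gene but Hoxa7. Hotairm1, an antisense gene of the Hoxa cluster, was at 0 and 0.13 against 1.96 and 1.2 TPM (limma adjusted p = 0.0364), and Hoxaas3, which spans the middle of the Hoxa cluster, at 0.08 and 0.09 against 0.77 and 0.57 TPM (limma adjusted p = 0.0335). Halr1, beyond the 3′ end of the Hoxa cluster, was at 1.76 and 1.72 against 13.5 and 9.44 TPM (log2 change 2.17, SE 0.24, limma adjusted p = 0.0241). In the separately normalized PRC2 table Halr1 was at 34.1 to 38.6 TPM in the 4 non-growing libraries and fell to 3.29 to 5.31 TPM in the 4 growing ones (limma adjusted p = 0.000243 in control and 0.000201 in cKO). Over all 46 other rows within the 4 cluster spans, 16 had a value above 0 in the PRC1 table. Of these 4 were higher and 0 lower, against 17.8% and 1.7% of all rows. Haglr, Hotairm1 and Hoxaas3 are in both counts, so the second is not a separate result.

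The risen set was set beside the other stages and genotypes. Among growing oocytes the 10 genes stayed at or below 0.71 TPM in PRC2 control and 0.55 TPM in PRC2 cKO, each maximum that of Hoxd9. Hoxc13 and Hoxd8, at 1.27 to 3.69 TPM in PRC1 cKO growing oocytes, were the members of the 10 with the highest levels in PRC2 control non-growing oocytes, at 0.83 and 0.90 TPM and 0.53 and 0.83 TPM. The tables were normalized separately, so these levels are side by side only.

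**Figure D5:**
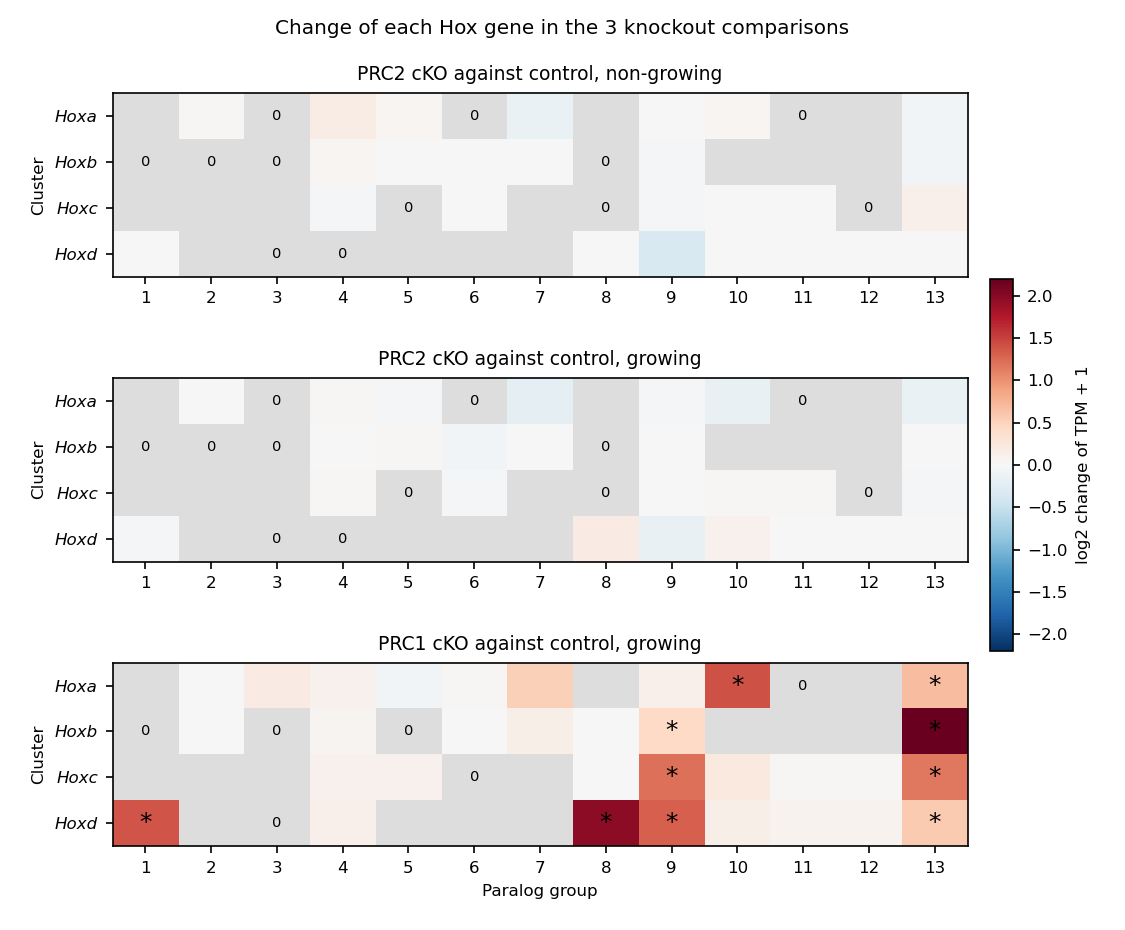
Log2 change of TPM + 1 of each Hox gene, by cluster (rows) and paralog group (columns), in the 3 knockout comparisons on a shared colour scale. Stars mark genes that passed, 0 marks genes at 0 in every library of the table and plain grey marks positions with no gene described; the 10 stars are all in the PRC1 panel.

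Genes around and upstream of the clusters gave further counts, to be read against 17.8% of all rows higher. In a separate fit of only the 14941 rows at 1 TPM or more in at least 2 libraries, 41.3% were higher (median log2 change 0.55). That fit had its own spread and p-value adjustment. The counts here come from the fit of all rows, so its share is not a like one. A median log2 change depends on neither the spread nor the adjustment. Of the 24 protein-coding neighbours, 3 on each side of a cluster, 9 were higher and 0 lower in PRC1 cKO, among them Lnpk beside Hoxd, at 5.99 and 7.05 against 28.9 and 19.2 TPM (limma adjusted p = 0.0305), and Mtx2 on its other side, at 60.1 and 55.1 against 124 and 123 TPM (limma adjusted p = 0.024). Evx2, the homeobox gene next to Hoxd13, was at 0 in control and at 0.03 and 0 TPM in cKO, and Evx1, beyond Hoxa13, was at 1.94 and 1.81 against 0.66 and 1.27 TPM and did not pass. The median log2 change of the neighbours was 0.36, against 0.15 over all rows and 0.55 over the rows of the separate fit. Of the 8 TALE homeodomain cofactors 3 were higher and 1 lower in PRC1 cKO. Meis1 was at 0.55 and 1.01 against 12.2 and 9.80 TPM (log2 change 2.76, SE 0.24, limma adjusted p = 0.024), and Pbx3 and Pknox2 also rose (log2 change 1.45 and 1.16). Meis2 fell from 316 and 246 to 48.9 and 97.4 TPM (log2 change -2.0, SE 0.39, limma adjusted p = 0.0459). The median log2 change was 0.65 over the 8 cofactors. Of 21 upstream regulators of Hox genes 7 were higher and 0 lower, with a median log2 change of 0.54: the retinoic acid synthesis enzymes Aldh1a1, Aldh1a2 and Aldh1a3, the retinoid receptors Rarb, Rxra and Rxrg, and the posterior signal Gdf11. Aldh1a2 was at 3.12 and 4.33 against 14.13 and 15 TPM (limma adjusted p = 0.0246), and Rxrg at 0.11 and 0.07 against 4.22 and 2.87 TPM (limma adjusted p = 0.0256). Of 13 related homeobox genes outside the clusters 0 were higher and 1 lower, with a median of 0.02: Pdx1, at 7.30 and 7.65 against 3.32 and 3.52 TPM (limma adjusted p = 0.037). Evx1 and Evx2 are also counted among the neighbours, and Cdx1, Cdx2 and Cdx4 among the upstream regulators, so these counts are not separate.

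Some markers of other ovarian cells moved in the same comparison, where 17.8% of all rows were higher and 1.7% lower. Their part in the Hox result was not tested. In bulk libraries, fewer cells of a type and less RNA per cell cannot be told apart. Summed granulosa markers were at 9.75 and 12.6 TPM in PRC1 control and 37.5 and 25.5 TPM in PRC1 cKO, with 4 of 12 higher, led by Inha, and with Foxl2 at 0 in both control libraries and at 0.19 and 0.14 TPM in cKO. Stromal and theca markers summed to 4.10 and 2.81 against 8.09 and 11.4 TPM (2 of 11 higher, Lum at 0 in control and Tcf21 at 0 in cKO), and surface epithelium markers to 2.57 and 4.49 against 15.3 and 9.56 TPM (2 of 7 higher, none at 0 in both libraries of a group). Immune markers summed to 14.3 and 15.2 against 44.4 and 38.4 TPM (4 of 9 higher), of which C1qb made up most, while Ptprc was at 0.01 and 0.03 against 0.16 and 0.15 TPM, and Adgre1, C1qa and Tyrobp were at 0 in control. Endothelial markers summed to 143 and 130 against 94.8 and 122 TPM (1 of 7 higher, Emcn at 0 in control), of which Vwf made up most. Oocyte markers summed to 17708 and 18975 against 13971 and 13197 TPM, of which Zp3 was the highest. Of the 12, 3 were higher (Ddx4, Figla and Sohlh1) and 3 lower (Gdf9, Bmp15 and Oosp1). Bmp15, a growth factor of the oocyte, went from 447.5 and 354 to 22.1 and 74.2 TPM.

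The PRC1 count rested on 4 libraries. All 10 changes were above 0 in every alternative in which the gene was tested. Without either PRC1 control library, however, the calls were not kept by limma, and no other row of the table passed. Without cKO replicate 1 or 2 the count rose to 16 and 19, where 22.6% and 28.3% of all rows were higher, and after quantile normalization it was 4, where 6.01% of all rows were higher. Homeobox sequences resemble each other, and the sources used here do not state how reads that fit several genes were assigned.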

How the data were processed

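Libraries of mouse oocytes, 2 in each of 6 groups, were grouped by their titles. The authors deposited TPM values in 2 tables, and each column sums to 1000000, so depth is unknown and no count test was possible. Per the labels' protocols, RNA from an RNeasy Plus Micro kit was made into NEBNext Single Cell/Low Input libraries and sequenced as paired reads of 150 bases. The submitters' processing notes name RSEM 1.3.3, Subread 2.0.3, SAMtools, HISAT2 and Trim Galore 0.6.10, and the build GRCm38 (mm10). The sources used here do not give the tool behind the TPM values, the use of strand or the treatment of multiple matches.

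Each table was fitted alone as log2(TPM + 1), a scale that understates changes of low genes, with limma 3.58.1 in R 4.3.3 (all groups in one fit, eBayes with a trend, no covariate). Every row with a value above 0 was tested, 30642 in the PRC2 and 32244 in the PRC1 table, and two-sided p-values were adjusted by Benjamini-Hochberg over these rows with a threshold of 0.05. The fit was tested on simulated data. Values per library are named for members that passed or reached 1 TPM, and in each other list for those that passed, with up to 4 of smallest p; Hoxa9, Hoxb7, Hoxc5 and Hoxd10 were added after their values were seen. A few listed genes are not reported here. Members and lists were chosen with earlier results of these data known. Gene models came from GENCODE vM21. Alternatives were the pseudocount (0.1 and 5), a filter of 1 TPM in 2 libraries, 3 scalings, other eBayes settings, a replicate block, a fit of only the groups compared, and each library left out. Figures were drawn with matplotlib 3.10.9.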

Additional observations from a re-analysis of the deposited data

How the results depend on the processing

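The count of 10 in the PRC1 comparison was 4 after quantile normalization, 9 to 11 with the other pseudocounts, scalings and eBayes settings, 7 with the filter, which left 8 members tested and 41.3% of all rows higher, and 0 to 19 with each library left out. Of the 10 genes, 4 passed in each of the 8 alternatives that kept every library, had no block and tested the gene (Hoxb9, Hoxc9, Hoxc13 and Hoxd13), where the filter left Hoxb9 and Hoxd13 untested. Hoxd9 did not pass without cKO replicate 1 or 2 (limma adjusted p = 0.113 and 0.104). Quantile normalization moved the median log2 change of all rows in this comparison from 0.15 to -0.00178, and trimmed-mean scaling to 0.0546. The growth counts, 5 in control and 4 in PRC2 cKO, were each 1 with the filter, which left 1 member tested, 2 to 5 in control and 4 to 5 in cKO with each library left out, and 4 to 5 otherwise. The PRC2 knockout counts of 0 stayed at 0 under all alternatives but 1 in growing oocytes, whose range with each library left out was 0 to 1.

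Same-numbered libraries of the PRC2 table deviated together with correlations of -0.0297 to 0.26 over 14153 rows, so the numbers are not taken as pairs, and a replicate block left the growth counts at 5 and 4 and the others at 0. In the PRC1 table the correlation was -0.268. The replicate block gave 0 members there, and the crossed pairing, chosen after seeing the data, gave 9. TPM gives no depth, so the counting error of levels under 0.1 TPM is unknown.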
